A study of Bos taurus with 14 samples.

Results

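The S100 genes encode small calcium-binding proteins, and 7 of them were listed for description in cattle embryonic stem cells, skin fibroblasts and blastocysts: S100A1, S100A4, S100A6, S100A10, S100A11, S100A13 and S100A16. They were found by symbol in the deposited expression tables. Of the 7, 6 were found among 23159 named features in one set of tables and 24616 in another, and S100A6 was not analysed here. The list was drawn up because S100A4 is among the genes most biased toward fibroblasts in these data. Every value that involves the fibroblast libraries is therefore given as a description, with no test.

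The stem cells were CTFR-bESC, cultures derived from cattle blastocysts and kept on mouse embryonic fibroblast (MEF) feeders in a base medium with no growth factor of its own, to which 20 ng/mL FGF2 and 2.5 μM IWR1, an inhibitor of WNT signalling, were added. For line A there was 1 library at each of passages 10, 13, 23, 35 and 45, and for line B 1 at each of passages 10, 12, 24, 35 and 46. The other groups were 2 lines of skin fibroblasts and 2 in vivo blastocyst samples, each a pool of 10 whole embryos. The labels name no genotype, breed, sex or age for any group. The libraries of a stem cell line are serial passages of 1 culture, so a p-value here reflects the scatter of these libraries and not of cultures derived separately. The values are RPKM, reads scaled to the length of the gene and to the mapped reads of the library, a scale on which different genes can be set side by side. No read counts were used, so depth in reads is unknown.

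S100 proteins carry a pair of EF-hand loops. Most of them open a binding face when calcium rises and then grip a target protein, often an annexin, a myosin or another part of the cell cortex. Members differ mainly in which target they hold and in which cell type they are abundant: some are epithelial, some mesenchymal and some myeloid. The roles named here are those known from human and mouse proteins.

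The libraries carried the markers of their labels. Over 4 pluripotency genes, summed RPKM was 541 and 418 in lines A and B at passage 10 (P10), 0.50 and 2.14 in the fibroblasts, where 2 of the 4 were listed at 0, and 84.8 and 68.0 in the blastocyst pools. Over 10 fibroblast markers the sums were 110 and 227 at P10, 216 to 347 at later passages, 5811 and 6172 in the fibroblasts, and 16.9 and 23.7 in the blastocyst pools. CDX2, a transcription factor of the trophectoderm, stood at 13.8 and 15.9 RPKM in the pools and was listed at 0 in the other 12 libraries. A pair of features took 65.8% and 64.0% of all RPKM in the blastocyst pools and the top 2 features took 2.08% to 3.36% elsewhere, which lowers the other blastocyst values as deposited. Since GAPDH, which every cell uses, has a value of 0 in each of the 14 libraries, a 0 need not mean absence, and such genes are described as listed at 0.

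S100A4, which binds nonmuscle myosin and is also known as fibroblast-specific protein, was very high in fibroblasts and low in every other library. It measured 1.38 RPKM in line A and 16.9 RPKM in line B at P10. The later stem cell libraries ranged from 6.51 to 20.2 RPKM, with a median of 9.63. The fibroblast lines measured 3678 and 3589 RPKM and the blastocyst pools 3.37 and 1.43 RPKM. No stem cell or embryo library came near the fibroblasts, while P10 line A lay just below both blastocyst pools and P10 line B above them. In the fibroblasts S100A4 was the 5th and 4th most abundant feature, against rank 10265 and 3693 at P10 and rank 4809 and 6699 in the blastocyst pools. The fibroblast mean was 398 times the P10 mean. By the fitted change, S100A4 was the 2nd most fibroblast-biased of 11761 genes against P10 and the 5th against blastocysts.

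S100A10 differs from its relatives in that its loops no longer bind calcium. It forms a complex with annexin A2 that anchors the giant protein AHNAK and receives plasminogen and its activator at the cell surface. At P10 it stood at 1.63 RPKM in line A and 9.54 RPKM in line B, and at 5.30 to 16.9 RPKM with a median of 11.8 at later passages. The fibroblasts measured 596 and 653 RPKM and the blastocyst pools 36.3 and 34.7 RPKM. The order was fibroblasts, then blastocysts, then stem cells, and the P10, fibroblast and blastocyst libraries did not overlap. Among the 6 analysed genes S100A10 was the only one with both P10 libraries below both blastocyst pools.

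S100A11, a partner of annexin A1, had the same order of groups as S100A13. At P10 it stood at 40.3 RPKM in line A and 63.0 RPKM in line B, and at 39.6 to 74.8 RPKM, median 55.8, at later passages. The fibroblasts measured 1298 and 1056 RPKM, and the blastocyst pools 2.11 and 1.48 RPKM. S100A13, which takes part with synaptotagmin 1 in the release of FGF1 from stressed cells, measured 14.8 and 27.6 RPKM at P10 and 34.8 to 57.8 RPKM, median 44.0, at later passages. It measured 153 and 85.4 RPKM in the fibroblasts, 0.49 RPKM in blastocyst pool A, and was listed at 0 in pool B. Both genes were highest in fibroblasts, intermediate in stem cells and lowest in blastocysts, with no overlap between those groups. Over the 6 libraries of P10, fibroblasts and blastocysts these were the most alike of the 15 pairs of members, with a root mean square difference of 1.02 between their centred log2(RPKM + 1) values.

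S100A16, a widely expressed member, varied least. It stood at 53.0 RPKM in line A and 43.1 RPKM in line B at P10, 49.2 to 69.4 RPKM with a median of 55.7 at later passages, 104 and 72.0 RPKM in fibroblasts, and 49.97 and 25.3 RPKM in the blastocyst pools. The fibroblasts were above the other groups, and the P10 lines and blastocyst pools overlapped. S100A1, which in heart and skeletal muscle regulates calcium handling, stayed low throughout. It measured 1.07 and 10.1 RPKM at P10, 5.49 to 13.9 RPKM with a median of 9.66 at later passages, 6.60 and 1.56 RPKM in fibroblasts, and 0.39 and 0.38 RPKM in the blastocyst pools. The P10 and fibroblast libraries overlapped for S100A1, with a wide gap between the lines in each group, and both groups were above the blastocyst pools.

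**Figure D1:**
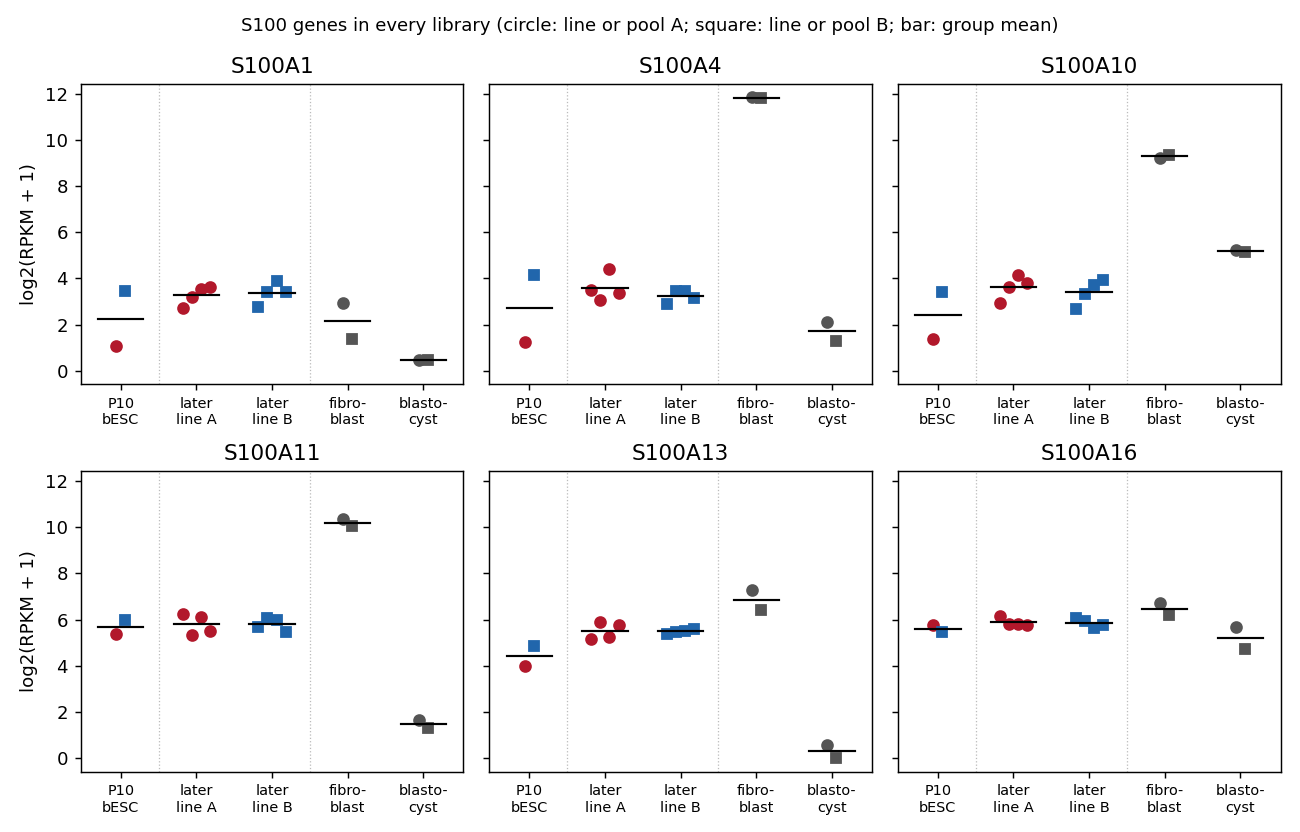
Level of each S100 gene as log2(RPKM + 1) on the vertical axis, by group on the horizontal axis. Each symbol is 1 library (circle, line or pool A; square, line or pool B) and the bar is the mean of the log2 values; S100A4 stands far above the other groups in the fibroblasts, where it measured 3678 and 3589 RPKM, and the P10 libraries of line A lie under those of line B for S100A1, S100A4 and S100A10.

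Against fibroblasts, 5 of the 6 genes were lower in both P10 libraries, without overlap; S100A1 overlapped. Over all tested genes 31.5% were lower in this way, and because the members were chosen on this contrast nothing is read from their count. In bulk samples fewer cells of a type and less RNA per cell cannot be told apart. The mean in fibroblasts was 112 times that at P10 for S100A10, 22.8 times for S100A11, 5.61 times for S100A13 and 1.84 times for S100A16. For S100A1 it was 0.73 times. Against blastocysts all 6 genes were higher in both fibroblast lines, as were 71.9% of all genes. On the log2 scale and relative to the median gene, S100A4 stood at 8.97, S100A11 at 7.57, S100A13 at 5.41, S100A10 at 2.94, S100A1 at 0.51 and S100A16 at 0.11. The value of S100A16 changed sign, to -0.33, when libraries were rescaled by the median of ratios.

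The genes that made up most of the summed S100 expression differed between fibroblasts, blastocysts and stem cells. S100A6 is not in that sum, so the shares below are of the S100 genes read and not of the whole family. Over the 16 S100 genes found in both sets of tables, summed RPKM was 130 and 205 at P10, 260 to 348 at later passages, 6021 and 5534 in the fibroblasts, and 308 and 242 in the blastocyst pools. S100A4 took 61.1% and 64.9% of that sum in the fibroblasts. At P10 S100A16 took 40.9% and S100A11 31.1% in line A, while in line B they took 21.0% and 30.7%, so the leading gene was not the same in both lines. In the blastocyst pools S100A14, an epithelial member outside the list, took 50.8% and 57.2%. The 6 listed genes made up 86.6% and 83.1% of the sum at P10, 52.0% to 77.4% later, 96.9% and 98.6% in fibroblasts, and 30.1% and 26.1% in blastocysts. At the later passages S100A2, known from keratinocytes and other epithelial cells, took 15.2% to 42.6%.

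**Figure D2:**
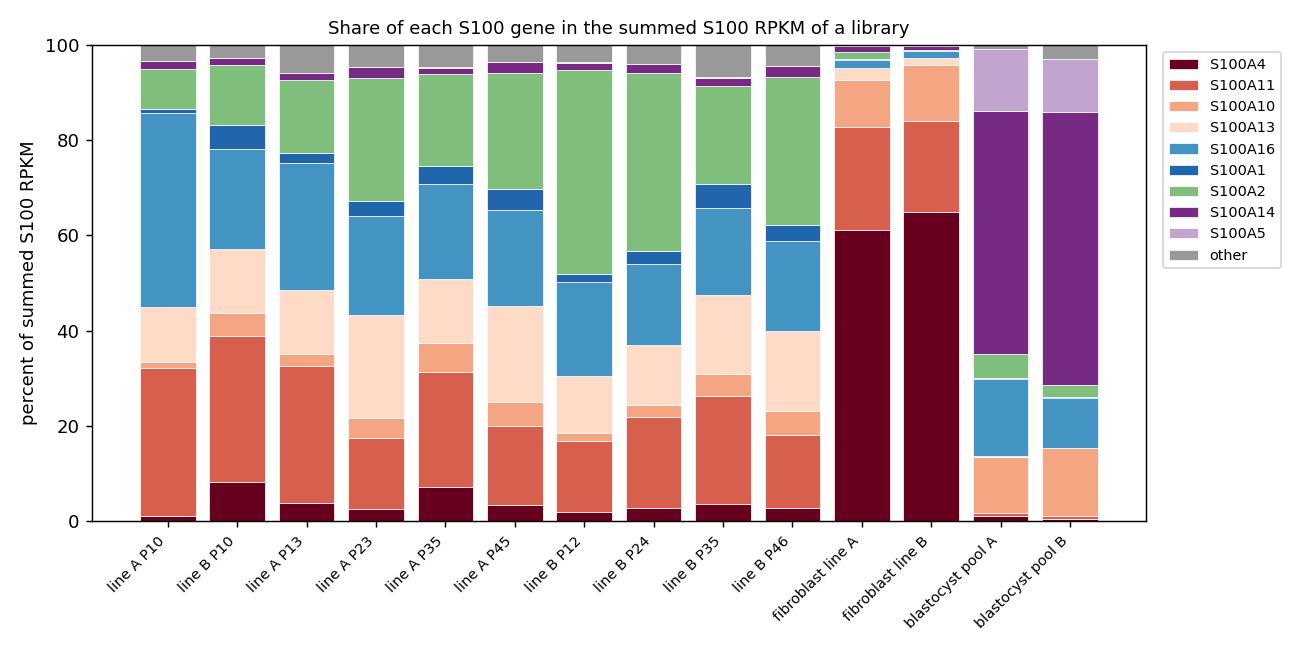
Share of each S100 gene, in percent of the summed S100 RPKM without S100A6, in every library (1 stacked bar each). S100A4 fills 61.1% and 64.9% of the fibroblast bars, S100A14 fills 50.8% and 57.2% of the blastocyst bars, and S100A16 leads in line A at P10, at 40.9%, and S100A11 in line B, at 30.7%.

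The comparison of P10 stem cells with blastocysts asks how the S100 genes of the cultured lines stand against embryos of the stage from which such lines are derived, and does not use the fibroblast libraries in the contrast. The P10 libraries of S100A4 also entered the choice of the list. Of the 6 genes, 2 were called higher at P10, S100A11 and S100A13, and 1 was called lower, S100A10. Over all 11761 genes tested 73% were called higher and 7.33% lower (limma on log2(RPKM + 1), Benjamini-Hochberg adjusted p under 0.05). That background depends on scaling, because the median gene stood 1.43 higher at P10 on the log2 scale as deposited and 0.11 higher after median-of-ratios scaling, where 35.1% were called higher and 30.2% lower. With quantile normalization these shares were 29.8% and 30.2%. The calls of S100A11, S100A13 and S100A10 held as deposited and under both of those scalings. Each change below has that of the median gene subtracted, while its p-value tests the fitted change as it was before.

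S100A11 rose at P10 by 2.78 ± 0.26 (SE) on the log2 scale relative to the median gene (fitted change 4.21, limma, adjusted p = 2.28e-05), with 2 of 2 P10 libraries above both pools. S100A13 rose by 2.70 ± 0.40 (fitted change 4.13, adjusted p = 1.13e-04), a value that rests on 1 pool at 0.49 RPKM and 1 listed at 0. Its size depends on the pseudocount, at 3.21 with 0.5 and 4.43 with 0.1, and its call held with both. Of 10 fibroblast markers tested in this comparison, 7 were called higher and 1 lower as deposited, beside 73% and 7.33% of all genes. Under all 3 scalings 5 were higher and 1 lower, beside 26.7% and 7.32% of all genes. The part of these markers, or of the feeder cells, in the higher values of S100A11 and S100A13 was not tested. S100A10 fell, with a change of -4.22 ± 0.58 relative to the median gene (fitted change -2.79, adjusted p = 0.0036, range over the alternatives 0.0002 to 0.0229). Even the higher P10 line, at 9.54 RPKM, was below the lower pool at 34.7 RPKM. Trophectoderm markers were lower too in this comparison: of 6 that passed the filter, 5 were lower at P10 under all 3 scalings. Of these, CDX2 and GATA3 passed the filter only through the pools, so their changes are given no test. The count is therefore not set against all genes. The others lower under all 3 scalings were GATA2, TFAP2C and KRT18. Over the 6 markers, CDX2 and GATA3 included, the median was -4.78 relative to the median gene. Over 7 markers the sums were 157 and 188 RPKM at P10, mostly KRT8 and KRT18, and 957 and 665 RPKM in the pools. CDX2 was listed at 0 at P10. In the fibroblasts, where S100A10 was highest, the sums were 15.6 and 11.8 RPKM. At later passages they were 235 to 788 RPKM over 8 markers, with S100A10 at 5.30 to 16.9 RPKM. Those later sums were also mostly KRT8 and KRT18. CDX2 was listed at 0 at later passages, and GATA3, GATA2 and TFAP2C did not exceed 0.60 RPKM. In the pools GATA3 stood at 12.3 and 12.4 RPKM and TFAP2C at 34.9 and 31.0 RPKM. The part of these markers in the lower values of S100A10, and of S100A14 and S100A5 among the other S100 genes, was not tested.

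The other 3 genes did not pass the test. Against the median gene S100A1 stood at 0.36 ± 0.82 (fitted change 1.79, limma, adjusted p = 0.0813). S100A4 stood at -0.43 ± 0.85, while its fitted change, which the p-value tests, was positive at 1.00 (adjusted p = 0.309). Both had a large gap between the P10 lines. The P10 values of S100A4 also entered the choice of the list. Without P10 line A, S100A4 stood at 1.08 and S100A1 at 1.62 relative to the median gene. That leaves 1 P10 library, so no p-value is given here. S100A16 stood at -1.01 ± 0.35, while its fitted change, which the p-value tests, was positive at 0.41 (limma, adjusted p = 0.301). It was called lower under median-of-ratios scaling, at -1.47 (adjusted p = 0.0118), and when libraries were rescaled without their 2 most abundant features, at -1.44 (adjusted p = 0.0454). Without blastocyst pool A it was called higher by its fitted change (adjusted p = 0.0385) while its value relative to the median gene was -0.58.

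**Figure D3:**
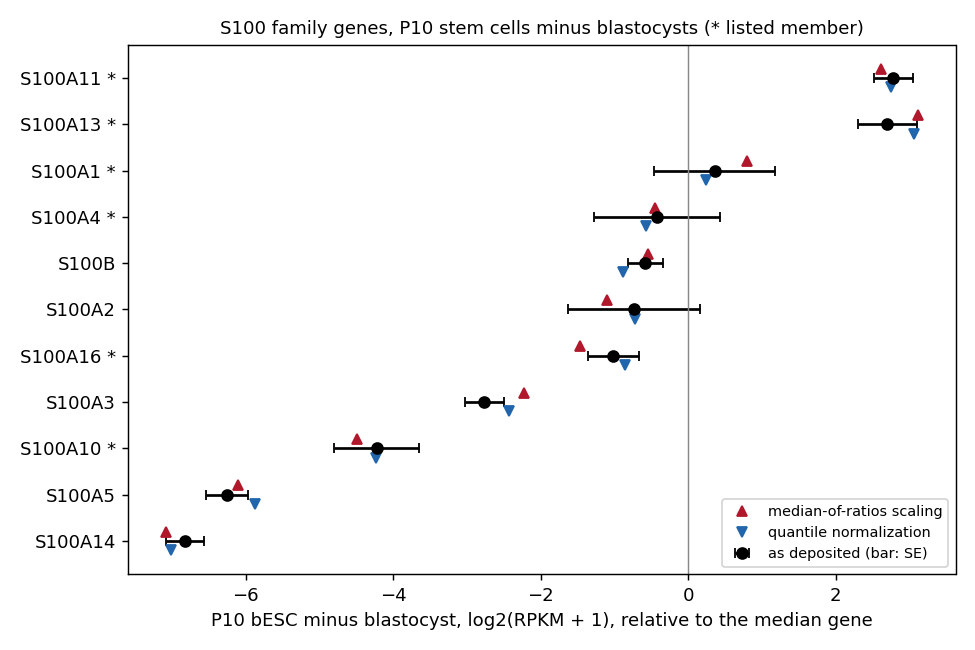
Change of each tested S100 gene at P10 against blastocysts, log2(RPKM + 1) relative to the median gene, on the horizontal axis (listed genes carry an asterisk). Black points are the values as deposited with their SE, and triangles are 2 other scalings; S100A11 at 2.78 and S100A13 at 2.70 lie to the right and S100A10 at -4.22 lies to the left under all 3.

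Of the 11 other S100 genes found, 5 passed the filter on low values. S100A14 and S100A5 were called lower at P10 under all 3 scalings and none was called higher under all 3. Of all genes 7.32% were called lower and 26.7% higher in this way. At P10 S100A14 stood at 2.09 RPKM in line A and 3.03 RPKM in line B, against 156 and 139 RPKM in the blastocyst pools, a change of -6.82 ± 0.26 relative to the median gene (adjusted p = 1.24e-05). S100A5, known from olfactory neurons, measured 0.18 and 0.22 RPKM at P10, against 40.4 and 26.8 RPKM in the pools, a change of -6.25 ± 0.29 (adjusted p = 2.04e-05). S100A3, a hair cuticle protein, was listed at 0 in line A and measured 0.06 RPKM in line B at P10, against 1.53 and 1.66 RPKM in the pools. It passed the filter only through the pools and 1 fibroblast line, so its change is given no test. All 3 were below both pools in both P10 lines, and S100A14 and S100A5 were also below the pools in both fibroblast lines, at 78.2 and 50.5 RPKM for S100A14 and 5.01 and 3.07 RPKM for S100A5.

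S100B, the glial member, measured 3.74 and 3.43 RPKM at P10, against 1.12 and 2.07 RPKM in the pools. Its call depended on scaling: it was called higher as deposited (fitted change 0.85, adjusted p = 0.0143), lower under quantile normalization (fitted change -0.89, adjusted p = 0.0181) and not called under median-of-ratios scaling, and relative to the median gene it stood at -0.58 ± 0.24. S100A2 measured 10.8 and 25.8 RPKM at P10, against 15.8 and 6.21 RPKM in the pools. It did not pass (fitted change 0.69, limma, adjusted p = 0.496) and stood at -0.74 ± 0.89 relative to the median gene. The myeloid genes S100A8, S100A9 and S100A12 were listed at 0 in both fibroblast lines and near 0 in the blastocyst pools. S100A8 was listed at 0 in P10 line A and measured 1.57 RPKM in P10 line B and 2.04 to 8.92 RPKM at later passages, while its usual partner S100A9 did not exceed 0.082 RPKM in any library. The sum of 8 blood and immune cell markers was highest, at 42.3 RPKM, in line B at P35, where S100A8 was at its highest, and lowest, at 4.17 RPKM, in line A at P35, where S100A8 stood at 6.02 RPKM. S100G, the calbindin of gut, measured 0.52 and 0.42 RPKM at P10, 2.51 to 6.10 RPKM later, and 3.23 RPKM in 1 blastocyst pool, with the other pool and both fibroblast lines listed at 0. In the RefSeq gene table (ARS-UCD2.0) the gene overlaps CTPS2, so its reads may be shared. S100Z did not exceed 0.34 RPKM, and S100A7 was listed at 0 in all 6 libraries of P10 and the controls.

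The annexins that S100 proteins bind were mixed. Of 6 tested, 4 were called higher and 2 lower at P10 than in blastocysts as deposited, where 73% and 7.33% of all genes were. Under all 3 scalings 1 was higher and 2 were lower, beside 26.7% and 7.32% of all genes, with a median of -0.46 relative to the median gene. The annexin called higher throughout was ANXA4, a membrane-binding protein of epithelia, with 5.33 and 15.7 RPKM at P10, against 0.15 and 0.62 RPKM in the pools (1.48 ± 0.45, adjusted p = 9.42e-04). ANXA8 fell to 0.045 and 1.78 RPKM at P10, against 32.8 and 28.0 RPKM in the pools (-5.63 ± 0.43, adjusted p = 1.47e-04). ANXA5, the phosphatidylserine-binding annexin, fell to 7.52 and 15.4 RPKM, against 19.1 and 24.4 RPKM (-2.37 ± 0.32, adjusted p = 0.0317). ANXA6 was called higher as deposited (fitted change 0.97, adjusted p = 0.0018) and lower under median-of-ratios scaling (fitted change -0.82, adjusted p = 0.0053). ANXA3 was called higher as deposited only, at 0.13 ± 0.48 against the median gene (adjusted p = 0.0216). The binding partners of S100A10 and S100A11, ANXA2 and ANXA1, were read in the later stem cell libraries, at 39.8 to 52.2 and 16.5 to 29.8 RPKM; they were named for that binding after their values were seen.

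Among 14 tested targets, receptors and partners of S100 proteins, 10 were called higher and 2 lower at P10 than in blastocysts as deposited, a share higher close to the 73% of all genes, and 4 and 2 under all 3 scalings, beside 26.7% and 7.32% of all genes (median -0.17 relative to the median gene). AHNAK, the cortical protein held by S100A10 and annexin A2, moved the same way as S100A10: it measured 1.56 and 5.85 RPKM at P10, against 34.1 and 35.0 RPKM in the pools, a change of -4.51 ± 0.42 (adjusted p = 5.21e-04). It stayed at 1.24 to 2.92 RPKM at later passages, and the fibroblasts measured 157 and 170 RPKM. The plasminogen activators differed. PLAU, the urokinase type, is outside the naming rule and was picked with its values known. It stood at 0.47 and 9.69 RPKM at P10, against 13.6 and 15.4 RPKM in the pools, at -3.39 relative to the median gene. It did not pass as deposited (adjusted p = 0.0593) and was called lower after quantile normalization (adjusted p = 0.0058) and after median-of-ratios scaling (adjusted p = 0.0045). PLAT, the tissue type, measured 31.6 and 27.5 RPKM at P10 and was listed at 0 in both pools (adjusted p = 9.71e-06). SYT1, the partner of S100A13 in FGF1 release, measured 6.08 and 14.7 RPKM at P10, against 0.032 RPKM in pool A and a value listed at 0 in pool B. It passed the filter only through the P10 libraries, so its change is given no test. It is nevertheless among the 10 counted as deposited and the 4 counted under all 3 scalings. MYH10, a nonmuscle myosin heavy chain, measured 111 and 78.8 RPKM at P10, against 12.0 and 14.1 RPKM in the pools (1.32 ± 0.26, adjusted p = 9.69e-05). PPP5C, a protein phosphatase that binds S100 proteins, stood at 1.32 ± 0.20 (adjusted p = 3.71e-05).

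Of 19 other EF-hand calcium sensors, 15 were called higher and 1 lower at P10 as deposited, where 73% and 7.33% of all genes were, and 7 and 1 under all 3 scalings, where 26.7% and 7.32% of all genes were (median 0.53 relative to the median gene). The 5 with the smallest adjusted p were all higher. They were RCN3, a calcium-binding chaperone of the endoplasmic reticulum, at 2.97 ± 0.19 (adjusted p = 1.08e-05), and SDF4, a Golgi protein, at 2.50 ± 0.23 (2.01e-05). The centrosomal proteins CETN3 and CETN2 stood at 2.11 ± 0.16 (1.17e-05) and 1.82 ± 0.19 (1.89e-05), and PPP3R1, the regulatory subunit of calcineurin, at 1.57 ± 0.19 (2.28e-05).

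**Figure D4:**
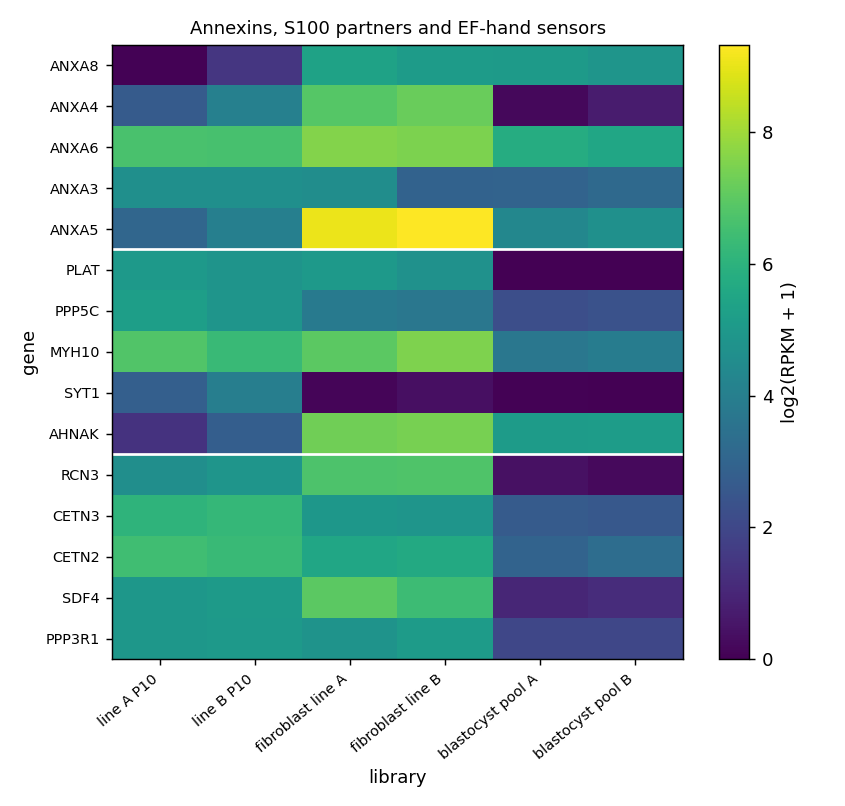
Level of annexins, S100 partners and EF-hand sensors as log2(RPKM + 1) (colour scale) in the P10, fibroblast and blastocyst libraries (columns). ANXA8 and AHNAK are dark at P10, at 1.78 and 5.85 RPKM or less, and PLAT, SYT1 and RCN3 are dark in the blastocyst pools, at 0.35 RPKM or less.

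At P10 the lines differed from each other for some of these genes. With 1 library each there is no test, and values are given side by side. S100A4 measured 1.38 RPKM in line A and 16.9 RPKM in line B, a difference of -2.91 on the log2(RPKM + 1) scale, and 31 of 11761 genes, or 0.26%, stood as low or lower. S100A1 stood at -2.42 and S100A10 at -2.003 on that scale. S100A13 at -0.85 and S100A11 at -0.63 were also lower in line A, and S100A16 stood at 0.29. Thus 3 of 6 genes were lower in line A by at least 1, where 3.5% of all genes were, and none was higher by as much, where 1.05% were.

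Some other lists differed in the same direction and some did not. Of 10 fibroblast markers, 4 were lower in line A by at least 1, where 3.5% of all genes were. Their sum was 110 RPKM in line A and 227 RPKM in line B, and none of the 10 was at 0 in either. Of 6 annexins, 3 were lower by as much. So were 3 of 14 targets, receptors and partners of S100 proteins, a list with a median difference of 0.16. None of 19 EF-hand sensors, 6 trophectoderm markers or 4 pluripotency markers was. A list of 7 blood and immune cell markers summed to 3.48 RPKM in line A and 41.2 RPKM in line B. Most of it was LYZ, at 2.33 and 31.5 RPKM, and TYROBP, at 0.57 and 8.10 RPKM. PTPRC, ITGAM and CSF1R were also lower in line A but did not exceed 0.68 RPKM. CD14 was level, at 0.077 and 0.087 RPKM, and CD3E was higher in line A, at 0.20 and 0.13 RPKM. Of 3 that passed the filter, 1 was lower in line A by at least 1. Whether fibroblasts or blood cells were present, and any part of them in the difference, was not tested. At later passages, P13 to P45, line A measured 7.26 to 20.2 RPKM for S100A4, 5.49 to 11.5 RPKM for S100A1 and 6.73 to 16.9 RPKM for S100A10. The P10 and later tables hold different feature lists and may have been normalized separately, so no test was made between them.

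The genes whose pattern over the 6 libraries of P10, fibroblasts and blastocysts was most like that of S100A4 were TNC, COL6A1 and COL1A2, matrix genes, with root mean square differences of 0.73, 0.78 and 0.88 between centred log2(RPKM + 1) values among 6181 genes. At P10, which entered the measure of likeness, TNC measured 1.53 RPKM in line A and 13.7 RPKM in line B, COL6A1 1.33 and 11.7 RPKM, and COL1A2 3.76 and 26.0 RPKM. Nearest to S100A10 were COL12A1 and FADS3 (0.77 and 0.79), to S100A11 IGFBP4 and TPM2 (0.24 and 0.37), and to S100A13 FXYD5 and EFEMP2 (0.29 and 0.31). S100A16 was nearest to NME2 and SMIM8 (0.11 and 0.12) and S100A1 to SAT2 and SFR1 (0.56 and 0.58). No S100 gene was among the nearest of another. These are descriptions over 6 libraries that share their scaling.

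Across the 8 later libraries, from P12 to P46, S100A16 had the smallest spread of the 6 genes. The coefficient of variation was 12.0% for S100A16, 17.7% for S100A13, 23.6% for S100A11, 30.1% for S100A1, 35.1% for S100A10 and 42.2% for S100A4. The value of S100A4 rests on line A at P35, at 20.2 RPKM; without that library, an alternative chosen after seeing the data, it was 17.0%, while those of S100A10 and S100A1 were 32.7% and 32.6%. No S100 gene was called for a difference between lines, for a slope with passage or for a difference of slopes (limma over 12785 genes), and over all genes 2, or 0.0156%, were called for the line difference and none for the slope or for the difference of slopes. At an unadjusted p under 0.05 the counts over all genes were 755 for the line difference (5.91%), 494 for the slope (3.86%) and 83 for the difference of slopes (0.649%), and those of the 6 genes were 0, 3 and 0.

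The 3 genes with a low unadjusted p for the slope were S100A10, S100A1 and S100A16, and none of them passed the adjustment. S100A10 in line A measured 6.73, 11.5, 16.9 and 13.1 RPKM at P13, P23, P35 and P45, and in line B 5.30, 8.98, 12.1 and 14.3 RPKM at P12, P24, P35 and P46. The lowest value was at the earliest of these passages in each line, and the slope per 10 passages was 0.34 ± 0.07 log2 (unadjusted p = 7.43e-04, adjusted p = 0.792, range over the alternatives 0.273 to 1.00). S100A1 measured 5.49, 8.22, 10.6 and 11.5 RPKM in line A and 5.86, 9.66, 13.9 and 9.65 RPKM in line B at those passages (slope 0.26 ± 0.07, unadjusted p = 0.0057, adjusted p = 0.961). S100A16 measured 69.4, 55.8, 55.7 and 53.9 RPKM in line A and 66.5, 59.5, 49.2 and 52.9 RPKM in line B, with its highest value at the earliest passage in each (slope -0.10 ± 0.03, unadjusted p = 0.0104, adjusted p = 0.961). For the other 3 genes the slopes were 0.10 ± 0.11 for S100A4, 0.10 ± 0.06 for S100A13 and -0.08 ± 0.09 for S100A11.

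S100A11 and S100A13 went up and down in opposite turns within line A. S100A11 measured 74.8, 39.6, 67.4 and 44.5 RPKM at P13, P23, P35 and P45, and S100A13 measured 34.8, 57.8, 37.5 and 54.3 RPKM. In line B the values of S100A11 were 50.3, 66.4, 61.3 and 43.2 RPKM and those of S100A13 40.2, 43.2, 44.9 and 47.3 RPKM, with no such alternation. Marker sums alternated as well in line A: 235, 738, 340 and 632 RPKM at those passages for 8 trophectoderm markers, led by KRT8 and KRT18 with CDX2 listed at 0, and 296, 216, 347 and 239 RPKM for the 10 fibroblast markers. Over all 12785 genes, the median distance to the other 7 later libraries (root mean square difference of log2 values) was 0.427 for line A at P13, 0.409 for line A at P35 and 0.369 for line B at P35, against 0.258 to 0.266 for the other 5. The part of these differences in the S100 values was not tested.

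Between the lines at later passages S100A4 averaged 11.7 ± 5.80 RPKM in line A and 8.62 ± 1.71 RPKM in line B (SD, n = 4 passages each; difference 0.29 ± 0.27 log2, limma, adjusted p = 0.771). The highest value of S100A4, 20.2 RPKM, was that of line A at P35, where the sum of the 10 fibroblast markers was also the highest of the later libraries, at 347 RPKM; the part of such cells in it was not tested. Without line A at P13 and P35 the difference was -0.06. The other 5 genes differed by -0.14 to 0.21 with SEs of 0.079 to 0.21. Outside the list, S100A2 measured 39.6 to 69.4 RPKM in line A and 55.7 to 143 RPKM in line B, overlapping (-0.84 ± 0.30, unadjusted p = 0.0261, adjusted p = 0.734).

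**Figure D5:**
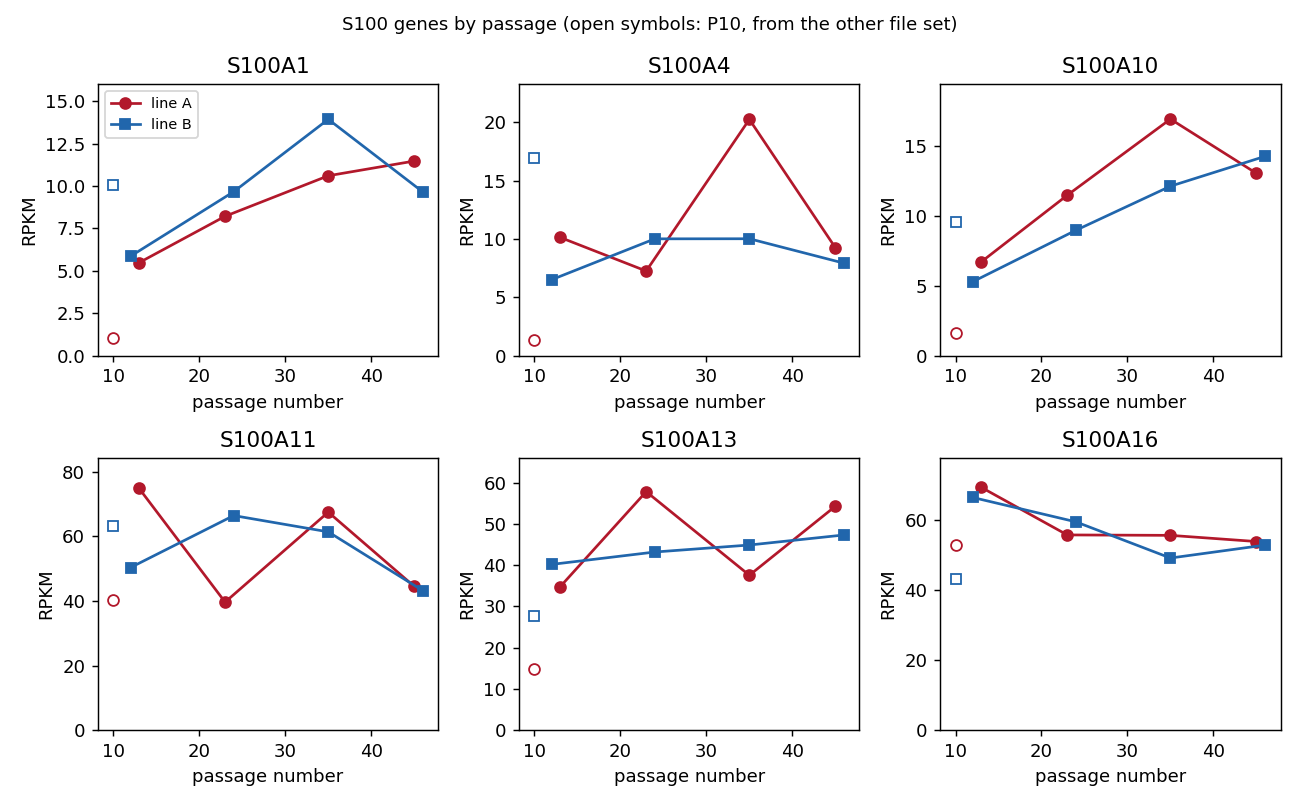
RPKM of the S100 genes on the vertical axis against passage number on the horizontal axis, for line A (circles) and line B (squares). Lines join the later libraries of each line and open symbols are P10, from the other set of tables; S100A10 lies lowest at the earliest later passage, 6.73 RPKM in line A and 5.30 RPKM in line B, and S100A11 and S100A13 alternate in opposite directions in line A.

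In the order of the RefSeq gene table, which is of another assembly than the one named for the deposited values, S100A1, S100A13, S100A14, S100A16, S100A2, S100A3, S100A4 and S100A5 follow each other without another protein-coding gene between them. S100A11 and S100A10 are neighbours elsewhere on the same chromosome, between TCHHL1 and THEM4. S100A4, at 3678 and 3589 RPKM in fibroblasts, lies between S100A3, at 0.17 and 1.09 RPKM, and S100A5, at 5.01 and 3.07 RPKM. S100A11 was higher at P10 than in blastocysts and S100A10, next to it, lower.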

How the data were processed

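Total RNA of 14 libraries was measured after TruSeq RNA library preparation, per the labels' protocols. The authors deposited RPKM per feature, 1 table per library. The submitters' processing notes name UMD3.1 and edgeR, with their roles, the aligner, the counter, the annotation and any strand setting not given in the sources used here. Depth is unknown, so no counting interval is given. The tables of P10 and controls share 1 feature list (23231 features, of which 26 with unreadable names, 25 with dates for names and 21 with blank values were left out). The 8 later tables share another, in which 26 names turned into date numbers in 5 tables were restored. The 2 sets share 21008 names, 18440 of them without a copy number.

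Values were analysed as log2(RPKM + 1), which understates changes of low genes, after a filter that kept genes reaching 1 RPKM in 2 or more libraries. All 6 analysed members passed in both fits. limma 3.58.1 (R 4.3.3, empirical Bayes with a mean-variance trend, two-sided, Benjamini-Hochberg over all genes, call at an adjusted p under 0.05) was fitted to P10, fibroblasts and blastocysts with 1 common spread, and to the 8 later libraries with line and passage, and again with their product. Tables were handled in pandas 2.3.3 and numpy 2.4.6 under Python 3.11.15. The code was tested on simulated data. Alternatives were pseudocounts of 0.1 and 0.5, no filter, a filter at 5 RPKM, other scalings, shared names, a replicate block and leaving out libraries. "All 3 scalings" means as deposited, median-of-ratios and quantile. Members, lists and alternatives were chosen with earlier results of these data known. Named were all members, all S100 genes found, and, of each other list, up to 5 genes with the smallest adjusted p at P10 against blastocysts. Likeness was computed for genes with a mean of at least 5 RPKM and a symbol in the gene table.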

Additional observations from a re-analysis of the deposited data

Results flagged for a closer look

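S100A16 in later line A was marked because 1 passage stood apart from the other 3: it measured 69.4 RPKM at P13, against 53.9 to 55.8 RPKM at P23, P35 and P45, a gap of 0.878 of the whole range, above Dixon's critical value of 0.829 for 4 samples. It was the only mark among 22 groups of 4 libraries checked (11 S100 genes in 2 lines), where chance marks about 1 in 20 groups. In line B the value at P12, 66.5 RPKM, was also the highest of 4. Over all genes line A at P13 was the later library farthest from the other 7, with a median root mean square log2 difference of 0.427.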

How the results depend on the processing

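At P10 against blastocysts the calls of S100A10, S100A11 and S100A13 kept their direction and side of the threshold under every alternative run. The counts over all genes did not: 4050 were called higher and 3495 lower under median-of-ratios scaling, 3508 and 3546 under quantile normalization, and 5303 and 2649 when rescaled without the 2 most abundant features. S100A16 made 2 members lower under the first and last of these. The cause was not tested, beyond the shift of the median gene that these scalings remove. Leaving out 1 library gave 433 to 882 genes lower and 2 to 4 members higher; the count of 433 was without blastocyst pool B, 489 without pool A, and the 4 members without P10 line A. S100A4 stood at 0.26 without a filter, and leaving out 1 library gave -1.82 to 1.08 for it and -0.79 to 1.62 for S100A1. S100A13 stood at 3.21 with pseudocount 0.5 and 4.43 with 0.1. With pseudocount 0.1, S100A1 was called higher, at 0.86 (adjusted p = 0.0441). The letters A and B name lines and pools, and the labels do not say whether same-lettered libraries share an animal. Across genes, deviations of same-lettered libraries correlated at -0.079 between P10 and blastocysts and -0.099 between P10 and fibroblasts. Between fibroblasts and blastocysts the value was 0.187. With 1 difference per group these values cannot decide whether an origin is shared. With a replicate block on the letter S100A10 stood at -4.22 (adjusted p = 0.0032), and no member call changed.

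For line A against line B the 2 genes called lower became 5 with pseudocount 0.1, 4 with 0.5, 0 with no filter or without line A at P13 and P35, and 1 under each of median-of-ratios scaling, quantile normalization and shared names; leaving out 1 library gave 0 to 5, and 0 to 2 genes lower for the slope. No member was called in any of these. Signs turned for differences near 0. For the line difference these were S100A13 at -0.0025 and S100A16 at -0.0029 (filter at 5 RPKM), S100A13 at -0.0079 (quantile), S100A4 at -0.063 (without line A at P13 and P35), and S100A4 at -0.34, S100A10 at -0.23 and S100A13 at -0.16 with all 10 stem cell libraries. Leaving out 1 library gave -0.17 to 0.11 for S100A11, -0.17 to 0.14 for S100A13 and -0.061 to 0.054 for S100A16. For the difference of slopes S100A16 stood at -0.014 (quantile), and S100A1 at -0.040, S100A11 at 0.11 and S100A13 at -0.13 without line A at P13 and P35. Leaving out 1 library gave -0.17 to 0.28 for S100A1, -0.31 to 0.15 for S100A10, -0.22 to 0.14 for S100A11, -0.15 to 0.12 for S100A13, -0.051 to 0.12 for S100A16 and -0.11 to 0.35 for S100A4. The cause was not tested.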
